A study of Mus musculus with 12 samples.

Results

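Dendritic cells grown from mouse bone marrow were compared after 24 h with lipopolysaccharide (LPS) and without stimulation. The comparison takes 6 of the 12 arrays of the series, 3 labelled as 24 h of LPS and 3 labelled unstimulated. Group membership came from the labels alone, and no measured value was used to choose arrays. All 12 arrays entered the model, so that the other groups (1 h and 6 h of LPS) added to the estimate of spread. The marrow came from mouse femur and tibia and was depleted of B and T cells with antibodies and magnetic beads. The remaining cells were kept for 5 days in medium that held 10 ng/ml of GM-CSF and 5 ng/ml of IL-4 in all groups. The 24 h group then received LPS at 100 ng/ml, and the unstimulated group was collected at 0 h. No unstimulated cells kept for the same added 24 h were among the samples, so the effect of LPS and that of added time in culture cannot be told apart. Mouse strain, age and sex are not given in the labels, and no sort of the cultured cells is named there.

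The samples are labelled as biological replicates with a letter (A, B or C) in each group, called the replicate letter below. Each Cy5-labelled sample was hybridised with the same Cy3-labelled pooled mouse reference RNA, without dye swaps. A level below is the log2 ratio of sample to reference on 1 array, and the 3 levels of a group are given in the order A, B and C. A change is the mean of the 3 levels at 24 h minus the mean of the 3 unstimulated levels, on the log2 scale, given as the change ± its standard error (SE). Adjusted p-values are two-sided, from limma with Benjamini-Hochberg adjustment over the 11108 genes tested, and a gene was called when its adjusted p was under 0.05. Arrays give no count of molecules, and 3 arrays per group limit the precision. Probes well above background in Cy5 made up 51.1 to 55.2% of those on the 6 arrays, and no spot was saturated. Per the file headers the arrays lay on 4 slides. Slide 1 held all 3 unstimulated arrays with the 1 h array A, slide 2 held the 24 h array B with the 1 h array B, and slide 4 held the 24 h arrays A and C with the 6 h array C. No slide held both groups of the comparison. A fit with slide as a block, linked through the 1 h and 6 h arrays, is therefore given beside the results. The scan passes follow the same split as the slides. Slide 2 had a brighter reference, with a median signal of 40.6 units on the 24 h array B against 22.5 to 24.6 on the other 5 arrays of the comparison.

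LPS is a component of the outer membrane of Gram-negative bacteria. It is bound by Cd14 and by the pair of Tlr4 and Ly96 (MD-2) at the cell surface. One branch of the signal passes through Myd88 to NF-kB and the MAP kinases and turns on cytokine genes. A second branch passes through Ticam1 (TRIF) to Irf3 and to interferon beta, which then acts back on the cells through STAT factors and Irf9. In dendritic cells the textbook outcome is maturation, in which uptake of antigen gives way to display of peptides on MHC molecules with costimulatory ligands, and the cells acquire Ccr7, the receptor that guides them to lymph nodes. Cultures with GM-CSF hold macrophage-like cells and granulocytes besides dendritic cells.

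Most listed markers of conventional dendritic cells were above background, as were most of several other cell types. Of 16 listed markers of conventional dendritic cells, 13 were above background on all 3 unstimulated arrays and 14 on all 3 arrays at 24 h. Cd209a and Clec9a were above background on none in either group. On all 3 unstimulated arrays 9 of 10 plasmacytoid and 7 of 8 stromal markers were also above background. So were 11 of 14 of macrophages and monocytes and 10 of 14 of neutrophils, against 3 of 8 of B cells. Such counts therefore do not single out 1 cell type. Itgax, which encodes CD11c, stood at 4.44, 4.30 and 4.40 without stimulation and at 4.56, 4.75 and 4.44 at 24 h. Its change of 0.21 ± 0.15 (adjusted p = 0.296) was not called. Zbtb46, a transcription factor of conventional dendritic cells, changed by 0.35 ± 0.15 (adjusted p = 0.0743) and was not called either. It was called without the 24 h array C (adjusted p = 0.037) and with the replicate letter as a block (0.049). Of the 14 conventional dendritic cell markers tested 4 rose and 5 fell (28.6% and 35.7%, against 18.0% and 21.4% of all genes tested). With slide as a block 3 rose and 3 fell. With local backgrounds taken as deposited, none of those flagged as outliers being replaced, 2 rose and 4 fell, and the scanner's processed signals gave 3 falls. The summed sample signal of the 16 was 95671.5 to 112429 units without stimulation and 83325.3 to 88171.2 at 24 h.

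Markers of other cells were read in the same way. Of 12 tested markers of macrophages and monocytes 2 rose (Cd14, and Adgre1 by 0.94) and 5 fell, 3 of them with local backgrounds as deposited. These shares were 16.7% and 41.7%, against 18.0% and 21.4% of all genes. Adgre1 was not called with median centring of the arrays (adjusted p = 0.181) or with arrays scaled to each other (0.0891). The summed signal of the 14 markers on the array was 11606.5 to 15054.8 units without stimulation and 32106.8 to 48033.5 at 24 h, and Cd14 is part of the sum. Of 9 tested markers of plasmacytoid dendritic cells 4 fell (44.4%, against 21.4% of all genes) and none rose. Siglech was above background on no array of either group. The sum over the 10 on the array was 4258.52 to 5036.83 units before and 2832.99 to 2987.04 after. For the 7 eosinophil markers on the array the sum was 13088.9 to 16679.3 units without stimulation and 2354.29 to 4018.44 at 24 h. Of the 4 tested, Ear1, an eosinophil ribonuclease, was the sole one called, with a change of -2.10 ± 0.21 (adjusted p = 1.48e-05). That call was lost with local backgrounds as deposited (adjusted p = 0.0681) and from the scanner's processed signals (-0.28, 0.361). The B cell markers Ms4a1, Pax5, Ebf1 and Blk were above background on no array of either group, and none of the 3 others tested was called. One marker was called among 3 tested of T cells (Lck, 1.38) and 1 of 1 of natural killer cells (Klrd1, above background on no 24 h array), 2 of 7 of stromal cells (Pdgfrb and Dcn, 1 of them with slide as a block and neither with local backgrounds as deposited) and none among 3 each of erythroid cells and megakaryocytes.

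Granulocyte markers were present and lower at 24 h. S100a8, a calcium-binding protein abundant in neutrophils and young monocytes, stood at 5.15, 4.67 and 3.94 without stimulation and at 1.65, -0.08 and 2.06 at 24 h, a change of -3.38 ± 0.56 (adjusted p = 0.000502). The groups did not overlap, as in 52.2% of all genes tested, and array B was the lowest at 24 h. Of 11 neutrophil markers tested, 8 fell (72.7%, against 21.4% of all genes) and the median change was -1.30. One was called higher, Csf3r, which was above background on no unstimulated array and was at least 1.44-fold higher at 24 h. Such a bound is taken from the dimmest Cy5 signals well above background. It rests on Cy5 alone, so it may exceed the change in the ratio of sample to reference. Ltf (lactoferrin) changed by -2.61, Cxcr2, a receptor for neutrophil chemokines, by -2.60 (adjusted p = 0.091 from the scanner's processed signals), Ctsg (cathepsin G) by -1.53 and Mpo (myeloperoxidase) by -1.30. Camp and Mmp8 were well above background on no 24 h array, unlike in unstimulated cells. Elane and Retnlg were well above background on no array of either group. In the fit with slide as a block 6 of the 8 fell, and Mpo (adjusted p = 0.0727), Ngp (0.62) and Csf3r (0.144) were not called. Csf3r was not called with local backgrounds as deposited either (0.0984). The summed sample signal of the 14 neutrophil probes ranged from 318809 to 398715 units in unstimulated cells and from 303490 to 364289 at 24 h. Fewer cells of a type and less RNA per cell cannot be told apart in such bulk samples. The part of this shift in the results below was not tested.

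At 24 h 4374 of 11108 genes were called, 39.4% of those tested. Of these, 1995 were higher (18.0%) and 2379 lower (21.4%), and the median change of all genes was 0.02. A change of at least 2-fold was called for 1332 genes, 605 of them higher (5.45% of those tested) and 727 lower (6.54%). The 3 arrays of one group lay wholly above or below those of the other for 5802 genes (52.2%). The rises were larger than the falls at the extremes. The steepest rise was 74-fold, for Saa3, and the steepest fall 13.5-fold, for Fcrls.

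**Figure D1:**
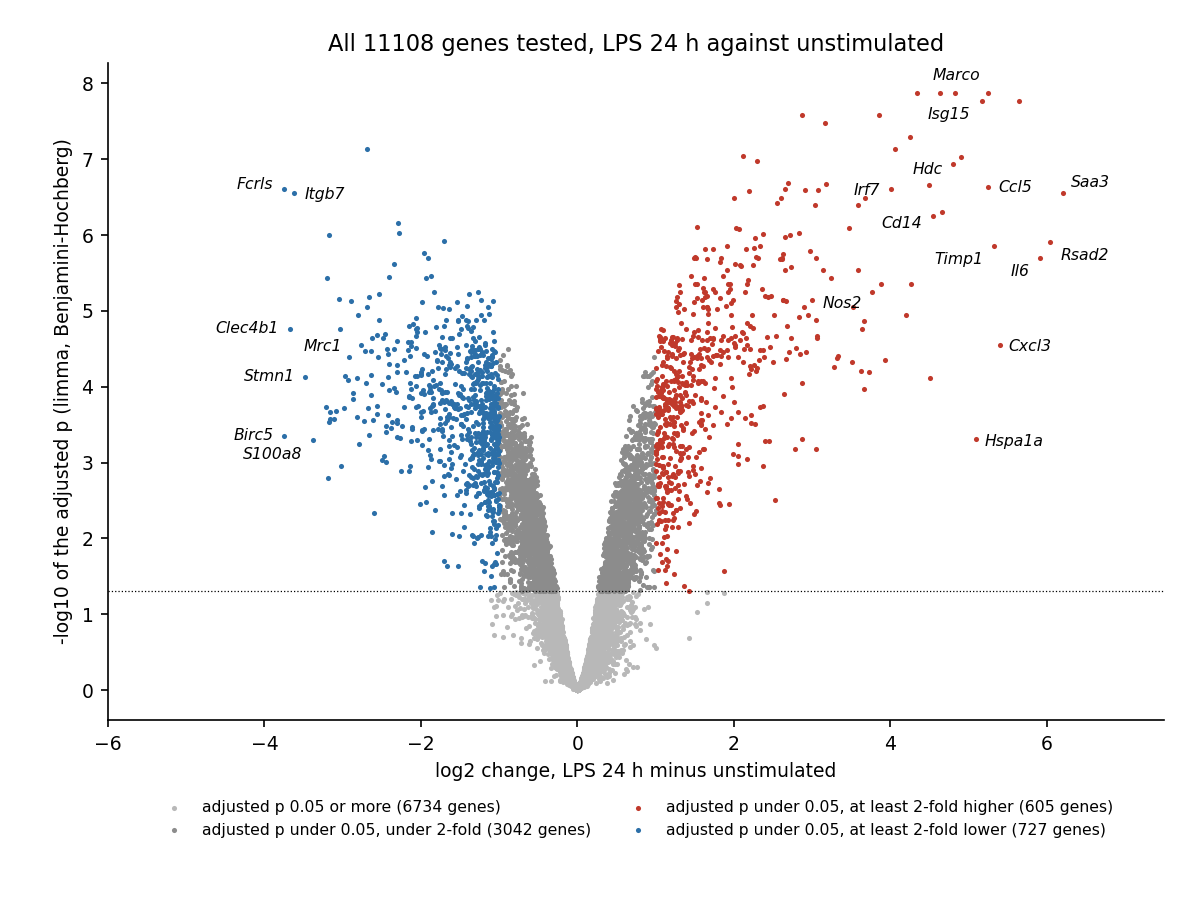
Log2 change (LPS 24 h minus unstimulated, x axis) against -log10 of the limma adjusted p (y axis) for the 11108 genes tested, 1 point per gene, with the dotted line at an adjusted p of 0.05. The 605 genes called at least 2-fold higher reach a log2 change of 6.21 (Saa3) and the 727 called at least 2-fold lower reach -3.75 (Fcrls and Birc5).

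The 20 steepest rises among genes whose arrays did not overlap were acute phase genes, cytokines and chemokines, antiviral genes, pattern receptors and a set of single genes. Saa3, an acute phase apolipoprotein made by macrophages and dendritic cells, had the steepest rise. Its levels were -3.29, -3.16 and -3.54 without stimulation and 2.05, 3.49 and 3.1 at 24 h, a change of 6.21 ± 0.38 (adjusted p = 2.78e-07). All 3 arrays at 24 h stood far above the unstimulated ones, with A the lowest. Hdc, the enzyme that makes histamine, went from 0.70, 0.32 and 0.52 to 5.03, 5.61 and 5.33, a change of 4.81 ± 0.26 (adjusted p = 1.14e-07). Of 12 markers of mast cells and basophils on the array 7 were tested, of which Hdc alone was called higher and 2 were called lower. Mcpt1, Mcpt2 and Mcpt8 were above background on no array of either group. Ms4a2 and Tpsb2 were above background on no unstimulated array, which did not hold at 24 h. Cpa3, a mast cell protease, fell by 0.59 (adjusted p = 0.154 with slide as a block). The summed signal of that list was 1190.13 to 1269.79 units without stimulation and 7284.17 to 12808.5 at 24 h, Hdc included. Hspa1a, an inducible HSP70 chaperone, stood at 0.70, 0.33 and 0.50 without stimulation and at 3.99, 7.06 and 5.77 at 24 h. Its change of 5.10 ± 0.85 (adjusted p = 0.000495) came with an SD of 1.54 at 24 h, against a median SD of 0.179 over all genes there, with B high and A low. Procr, the endothelial protein C receptor, changed by 4.50 ± 0.26 (adjusted p = 2.19e-07). Thbs4, a thrombospondin of the extracellular matrix, was not well above background on any unstimulated array, and was at least 18.4-fold higher at 24 h (adjusted p = 1.33e-08). Hamp, the iron hormone hepcidin, was also above background on no unstimulated array and on all 3 at 24 h (levels 4.49, 5.29 and 4.76), and no size is given for it.

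The 20 steepest falls held genes of cell division and genes of the resting myeloid surface. Fcrls, an Fc receptor-like scavenger receptor, went from 4.75, 4.59 and 5.04 to 1.45, 1.15 and 0.53, a change of -3.75 ± 0.22 (adjusted p = 2.46e-07). Clec4b1, a C-type lectin of dendritic cells, stood at 6.07, 6.32 and 5.99 and then at 2.92, 3.01 and 1.42, a change of -3.68 ± 0.38 (adjusted p = 1.71e-05). Itgb7, the integrin beta 7 chain, changed by -3.62 ± 0.22 (adjusted p = 2.78e-07), from 0.90, 0.35 and 1.02 to -2.79, -2.71 and -3.08. Lmnb1, a lamin of the nuclear envelope, changed by -3.19, and Stmn1, a protein that destabilises microtubules, by -3.48. Daglb, a diacylglycerol lipase, changed by -3.18, and Asb4, an ankyrin repeat protein, by -3.03. Another kept probe of Asb4, which was dimmer, changed by -0.23. Cyp2s1, a cytochrome P450, stood at -2.21, -2.74 and -0.40 at 24 h and changed by -3.19. It was the only one of these 40 genes not called with slide as a block (adjusted p = 0.0654).

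The 3 arrays at 24 h differed in how far they lay from the unstimulated mean. Array A showed the smallest change from the unstimulated mean in 413 of the 605 genes that rose at least 2-fold (68.3%) and in 526 of the 727 that fell (72.4%). The median change over the 605 genes was 1.28 on A, 1.68 on B and 1.54 on C, and the median fall over the 727 genes was 1.14, 1.47 and 1.49. The same distances between each unstimulated array and the 24 h mean were 1.44, 1.54 and 1.39 for the rises and 1.39, 1.41 and 1.30 for the falls. Whether the culture, the array or its scaling gave the smaller values on A was not tested. Il6 showed the same order, with 6.45, 7.72 and 7.67 at 24 h. Array A shared slide 4 with array C and not with B. Arrays of 1 group correlated across genes at r = 0.956 to 0.971 at 24 h and at 0.975 to 0.983 without stimulation, against 0.788 to 0.89 between the groups, which describes profiles over genes that are not independent of each other. The median SD of a gene was 0.179 at 24 h and 0.135 without stimulation.

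**Figure D2:**
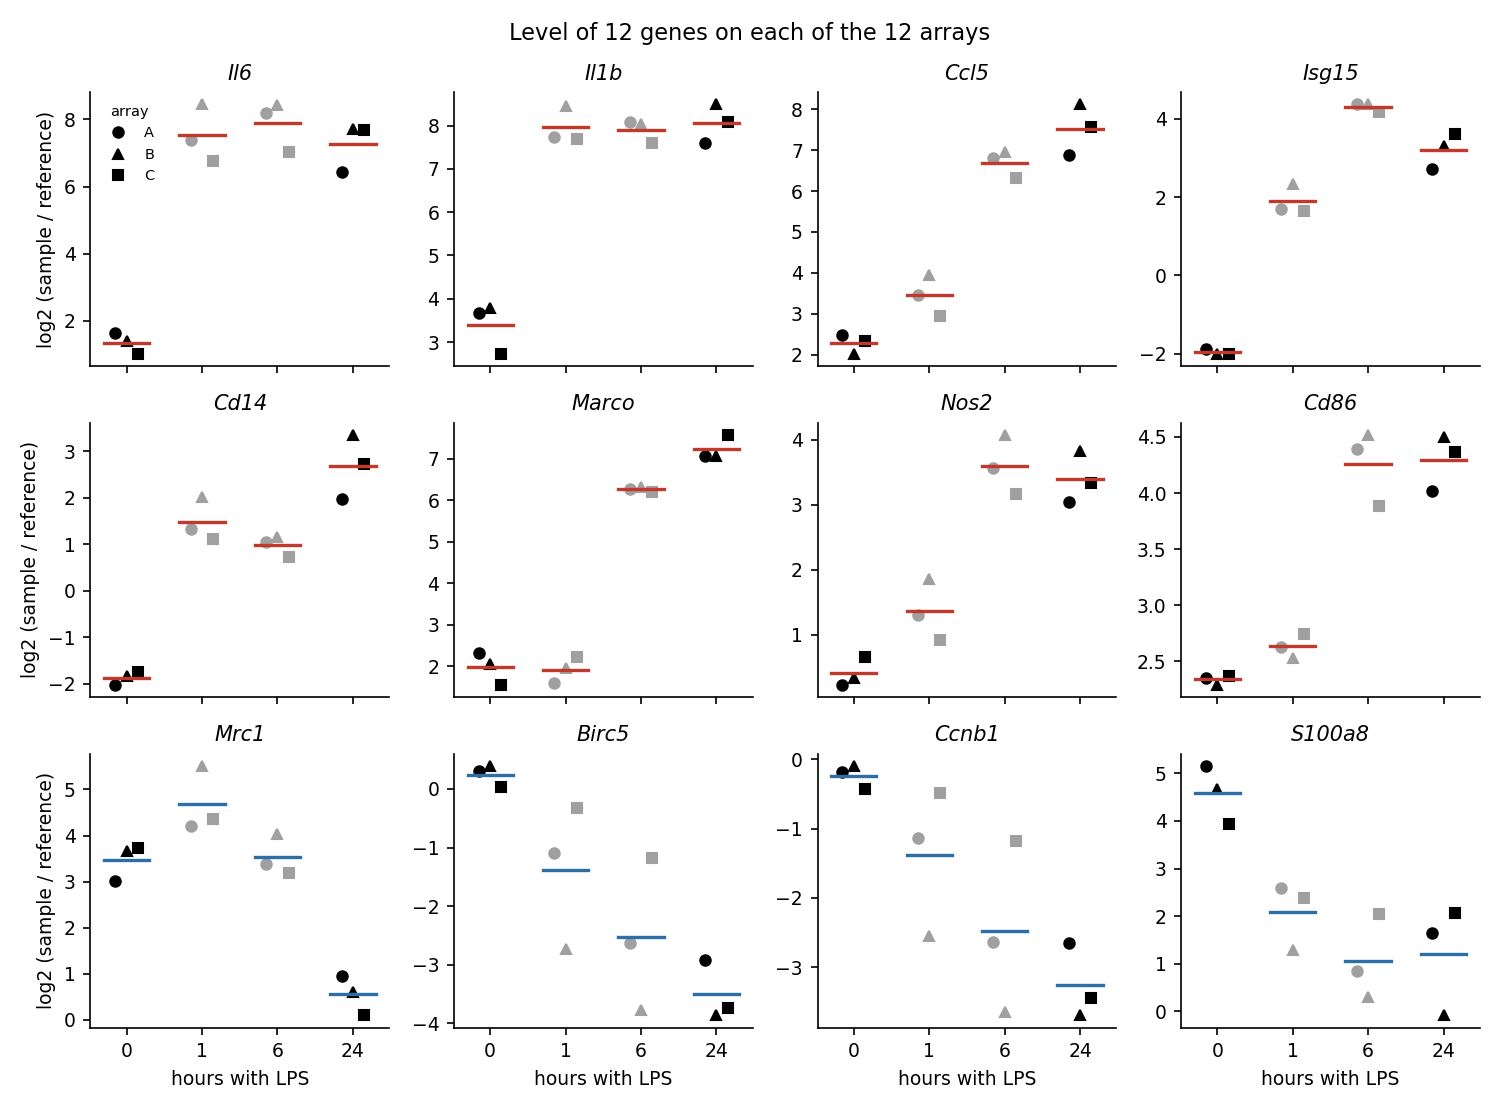
Level (log2 ratio of sample to reference, y axis) of 12 genes on each of the 12 arrays at 0, 1, 6 and 24 h of LPS (x axis), with circles, triangles and squares for arrays A, B and C and a bar for the mean of each group. In all 12 genes the black points at 24 h lie wholly above or wholly below the black points at 0 h. The genes were picked from those called, and the groups did not overlap for 5802 (52.2%) of the 11108 genes tested. Grey points are the 1 h and 6 h arrays. Birc5 at 24 h lies between -3.86 and -2.92, below 0.03 to 0.39 without stimulation.

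With slide as a fixed block 1759 genes were called, 848 higher and 911 lower. Of the 4374 genes called without it, 1707 remained called in the same direction and 4352 kept their sign. That fit has 5 residual degrees of freedom against 8, and the contrast passes through the 1 h and 6 h arrays. Saa3 changed by 6.31 with the block (adjusted p = 0.000153), Il6 by 6.23 (0.000744) and Birc5 by -4.02 (0.0251). The number of genes called with at least 2-fold change was 1399 with the block, against 1332. Other settings are named beside results that they change, and the closing section counts the calls lost. They are local backgrounds as deposited, median centring of arrays in place of loess, arrays scaled to each other, and the scanner's processed signals. Some settings called fewer of all genes, so a count of list members in a setting is to be read beside its total. Of 11108 genes, 848 were higher and 911 lower with the block. These totals were 834 and 1499 with median centring, and 1349 and 1679 with local backgrounds as deposited.

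**Figure D3:**
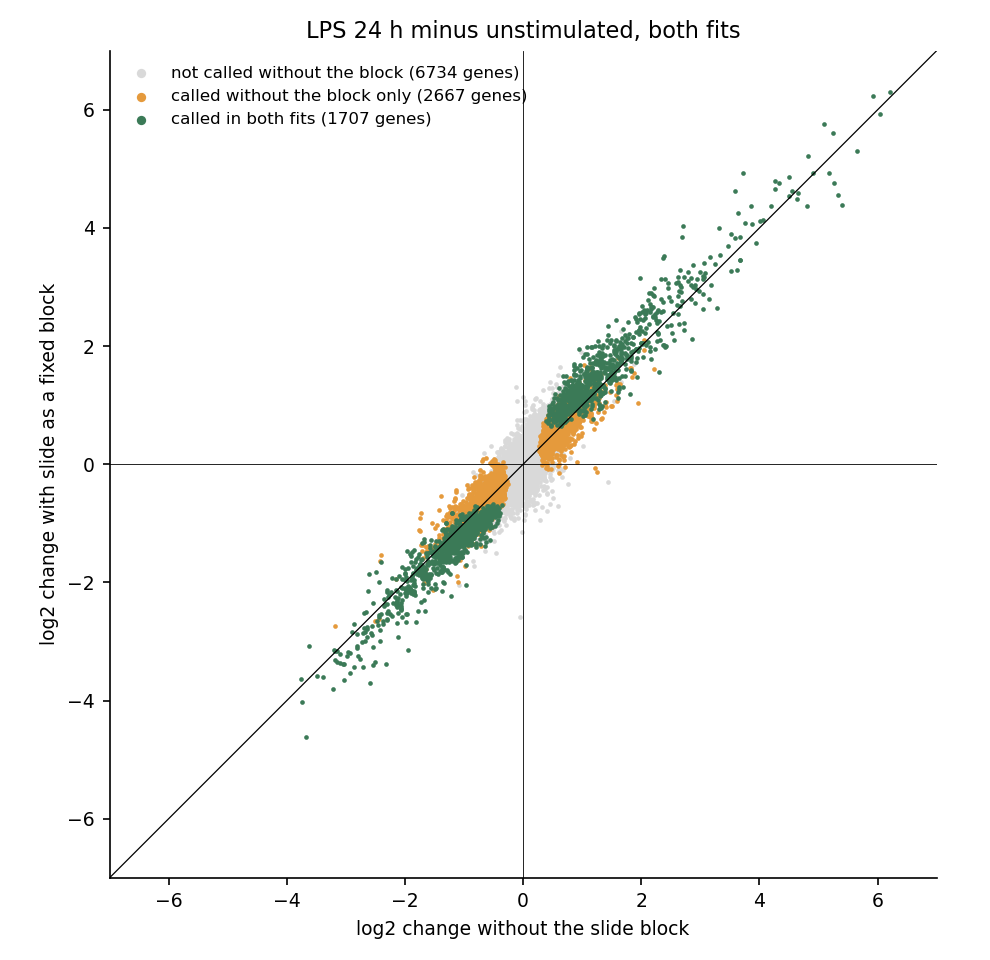
Log2 change between LPS 24 h and unstimulated cells without (x axis) and with slide as a fixed block (y axis), 1 point per gene and a line of equality. The 1707 genes called in both fits are green and the 2667 called only without the block are orange. Saa3 lies at 6.21 without and 6.31 with the block.

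The sensing apparatus for LPS itself moved in parts. Cd14, the co-receptor that hands LPS to Tlr4, rose from -2.01, -1.83 and -1.75 to 1.96, 3.34 and 2.73, a change of 4.54 ± 0.30 (adjusted p = 5.55e-07) or 23.3-fold. Ly96, which binds the lipid inside Tlr4, rose by 1.53 ± 0.18 (adjusted p = 3.95e-05). Tlr4 itself stood at -0.18, 0.13 and 0.06 without stimulation and at 0.00, 0.15 and -0.29 at 24 h, so that the groups overlapped and the change of -0.05 ± 0.30 (adjusted p = 0.914) was not called. Its value in the slide block fit was -0.78 (adjusted p = 0.205). Of 20 Toll-like receptors and adaptors tested, 8 rose (40%, against 18.0% of all genes), 1 fell and the median change was 0.14. The rises were 5 with median centring, where Ticam1 was not called (adjusted p = 0.0664), and 5 with local backgrounds as deposited. Tlr1 rose by 1.73 and Ticam1, the TRIF adaptor, by 1.05, while Myd88 (-0.20) and Tlr2 (0.28) were not called. Ly86 (MD-1) fell by 1.09. With the block 4 remained higher (Cd14, Tlr1, Ly96 and Ticam1), and Irak2 (adjusted p = 0.051) and Ly86 (0.193) were among the 5 not called.

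A majority of the NF-kB pathway genes tested rose. Of 28 tested, 20 rose (71.4%, against 18.0% of all genes), 1 fell and the median change was 0.79. Nfkbiz, a nuclear IkB protein that opens a class of secondary response genes, went from -2.47, -2.46 and -2.51 to -0.29, 0.80 and 0.70, a change of 2.88 ± 0.38 (adjusted p = 8.79e-05). Nfkbia, which encodes IkB alpha and retains NF-kB in the cytoplasm, rose by 2.23 ± 0.27 (adjusted p = 5.8e-05), and Tnfaip3 (A20), a ubiquitin-editing inhibitor, by 1.68 ± 0.34 (adjusted p = 0.00184). Among the DNA-binding subunits Nfkb2 rose by 1.63, Relb by 1.12, Rela by 0.79 and Nfkb1 by 0.60. With slide as a block 16 were higher, with Nfkb1 (0.183, and 0.0877 to 0.281 under 3 of the other settings) and 4 other genes that had risen no longer called. Tnip3 was the member that fell, with a change of -0.86 ± 0.24 (adjusted p = 0.0116), and it was not called with the block (0.206) or without the 24 h array C (adjusted p = 0.057).

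Feedback inhibitors of signalling split by gene. Of 21 tested, 10 rose and 4 fell (47.6% and 19.0%, against 18.0% and 21.4% of all genes), and the median change was 0.60. Socs3, which blocks signalling by the IL-6 receptor, went from -0.37, -0.46 and -0.05 to 1.96, 2.52 and 2.46, a change of 2.61 ± 0.16 (adjusted p = 3.25e-07). Dusp1, a phosphatase that switches off p38 and JNK, rose by 2.29 ± 0.17 (adjusted p = 1.93e-06), Dusp4 by 2.17 and Rgs1, a regulator of G protein signalling, by 2.11. The 4 that fell were Rgs2 (-1.71), Dusp6, a phosphatase of ERK (-1.23), Pdlim2 (-1.14) and Sigirr, an inhibitory member of the IL-1 receptor family (-0.91). The value for Socs1 (-0.05) did not pass. Dusp6 was not called with slide as a block (adjusted p = 0.0702).

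Inflammatory cytokines remained far above the unstimulated level after 24 h. Of 21 tested, 16 rose (76.2%, against 18.0% of all genes) and 1 fell, with a median change of 1.58, and with slide as a block 14 rose with a median of 2.34. Il6 stood at 1.63, 1.41 and 1.02 without stimulation and at 6.45, 7.72 and 7.67 at 24 h, a change of 5.92 ± 0.46 (adjusted p = 1.98e-06) or 60.6-fold. Il1b, the secreted pyrogen processed by caspase-1, went from 3.68, 3.78 and 2.73 to 7.59, 8.49 and 8.08, a change of 4.66 ± 0.30 (adjusted p = 4.89e-07). Il1a rose by 4.64 ± 0.19 (adjusted p = 1.33e-08). All 3 genes had groups far apart. Tnf went from 0.63, 0.88 and 0.41 to 3.38, 3.52 and 3.76, a change of 2.91 ± 0.17 (adjusted p = 2.55e-07). Il1rn, the antagonist of the IL-1 receptor, rose by 2.44, and Inhba, the activin A chain, by 3.18. Among subunits of the IL-12 family, Il12a was above background on no unstimulated array and at least 4.39-fold higher at 24 h, and Ebi3 rose by 1.45, while Il27 had a value of 0.27 that did not pass. Il23a, with no unstimulated array above background, was called higher (adjusted p = 0.049), and no size is given for it. It was not called without unstimulated A, B or C or 24 h B, at adjusted p-values of 0.0905 to 0.206. Il15, which sustains natural killer and memory T cells, rose by 1.58. Il10 did not pass the filter on dim probes, and Il12b is not analysed here. Mif, a cytokine stored before stimulation, was the member that fell, with a change of -0.40 ± 0.14 (adjusted p = 0.0323). Its call was lost without unstimulated A, B or C or 24 h A or C, at adjusted p-values of 0.0643 to 0.115, and with the slide block (0.337).

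Chemokines for several kinds of leukocyte rose, though not all did. Of 23 tested, 11 rose (47.8%, against 18.0% of all genes) and 1 fell, with a median change of 1.62. Ccl5, which draws T cells and monocytes, went from 2.48, 2.02 and 2.32 to 6.88, 8.12 and 7.56, a change of 5.25 ± 0.31 (adjusted p = 2.35e-07) or 38-fold. Cxcl3, which draws neutrophils through Cxcr2, rose by 5.40 ± 0.59 (adjusted p = 2.78e-05). Cxcl10, the interferon-induced ligand of Cxcr3, was above background on 1 of the 3 unstimulated arrays and stood at 1.20, 2.85 and 3.39 at 24 h, a change of 3.67 ± 0.49 (adjusted p = 0.000107). Cxcl16 rose by 2.62 and Ccl3 by 1.91. Ccl22, which draws regulatory T cells, stood at 0.15, 0.17 and 0.44 without stimulation and at 1.01, 4.31 and 1.08 at 24 h. Array B, on slide 2, was far above the other 2 at 24 h, and the change of 1.88 ± 0.71 (adjusted p = 0.0518) was not called. Ccl22 was called with slide as a block at 1.69 (adjusted p = 0.0174), and with the replicate letter as a block its adjusted p was 0.0169. It was also called without the 24 h array A or C (0.021 and 0.0301). Cxcl1 and Cxcl2 were above background on no unstimulated array and did not pass either. Their adjusted p-values were 0.0391 and 0.0122 with the replicate letter as a block and 0.0295 and 0.0212 without the 24 h array A. Without the 6 h array B the value for Cxcl1 was also called (0.013). Ccl4, Ccl8, Ccl17 and the falling Cxcl14 were not called with slide as a block. Cxcl14 was above background on no 24 h array, so that no size is given for its fall. Its call was also lost with local backgrounds as deposited (adjusted p = 0.0735), with median centring (0.122) and without unstimulated C or 24 h B (adjusted p = 0.0678 and 0.0679).

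Of 15 receptors for chemoattractants 4 were higher and 3 lower (26.7% and 20%), shares near the 18.0% and 21.4% of all genes. With local backgrounds as deposited 2 were higher and 1 lower, and Ccr7 (adjusted p = 0.14), Fpr1 (0.186), Ccr2 (0.0732) and P2ry6 (0.0538) were not called. Ccr7, the receptor of mature dendritic cells for the lymph node chemokines Ccl19 and Ccl21, went from 5.32, 4.77 and 5.01 to 6.04, 6.76 and 6.07, a change of 1.25 ± 0.26 (adjusted p = 0.00215). It was 1.71 with slide as a block (adjusted p = 0.00838), but was not called with arrays scaled to each other (0.66, adjusted p = 0.0631) or from the scanner's processed signals (0.34, 0.177). Ccrl2, a non-signalling receptor for chemerin, rose by 3.51 ± 0.42 (adjusted p = 4.73e-05). Fpr2 rose by 2.63 and Fpr1 by 1.12 (adjusted p = 0.221 with slide as a block), both receptors for formylated peptides. Ccr2, the receptor for Ccl2 on inflammatory monocytes, went from 3.60, 3.97 and 4.03 to 2.56, 1.87 and 1.34, a change of -1.95 ± 0.40 (adjusted p = 0.0021), with a value of -3.15 with slide as a block. Cxcr2 fell by 2.60, beside the falls of other neutrophil markers given above, and P2ry6, a receptor for UDP, by 1.34.

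Antiviral genes that type I interferon is known to induce rose almost throughout. Of 37 antiviral interferon-stimulated genes tested, 34 rose (91.9%, against 18.0% of all genes), none fell, and the median change was 2.08 against 0.02. Tor3a (0.44), Eif2ak2 (0.33) and Ifi44 (above background on 1 of the 6 arrays) did not pass. Of these Tor3a was called without the 24 h array A (adjusted p = 0.0297) and with the replicate letter as a block (0.0131). In the slide block fit 35 rose, with a median of 2.20. Rsad2 (viperin), which makes a chain-terminating nucleotide, went from -1.29, -1.23 and -1.27 to 3.75, 4.87 and 5.74, a change of 6.05 ± 0.44 (adjusted p = 1.21e-06). Isg15, a ubiquitin-like modifier, went from -1.89, -2.0 and -2.0 to 2.72, 3.30 and 3.62, a change of 5.18 ± 0.22 (adjusted p = 1.68e-08) or 36.2-fold. In both genes array A was the lowest and C the highest at 24 h. Oasl1 rose by 5.65 ± 0.24 (adjusted p = 1.68e-08), Ifit1, which binds RNA lacking a host cap, by 3.62, and Irf7, the factor that amplifies interferon alpha genes, by 4.01 ± 0.24 (adjusted p = 2.46e-07). Of 15 interferon-induced GTPases, which attack the vacuoles of intracellular microbes, 13 rose and none fell, with a median of 1.35, and the same numbers rose and fell with the block. Gbp2 went from 1.21, 0.78 and 0.84 to 3.99, 4.20 and 4.16, a change of 3.17 ± 0.15 (adjusted p = 3.27e-08), and Gbp5 rose by 3.34. Probes for Ifit, Oas and Gbp genes may share signal between near-identical copies. Ifnb1 was above background on no unstimulated array and stood at 1.34, 1.79 and 2.67 at 24 h (adjusted p = 0.027, and 0.393 with slide as a block). The call for Ifnb1 was also lost without unstimulated A, B or C or 24 h C, at adjusted p-values of 0.0584 to 0.109.

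The interferon-stimulated genes are shown with their promoters because most of these genes moved together. The sequences are 250 bases before the RefSeq start, GRCm38.p6, on the gene's strand and 5′ to 3′, and capitals mark matches, on either strand, to GAAA, 2 bases of any kind and GAAA again, a core of the interferon-stimulated response element bound by STAT factors with Irf9 and by other Irf factors. The Isg15 promoter lies at chr4:156200819-156201068, minus strand, that of Ifit1 at chr19:34640639-34640888, plus strand and that of Gbp2 at chr3:142620413-142620662, plus strand.
Isg15: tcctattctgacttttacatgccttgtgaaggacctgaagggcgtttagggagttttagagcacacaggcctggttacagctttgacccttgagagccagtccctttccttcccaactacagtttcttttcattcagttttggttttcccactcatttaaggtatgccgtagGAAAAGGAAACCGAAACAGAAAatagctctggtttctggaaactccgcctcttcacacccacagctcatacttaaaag
Ifit1: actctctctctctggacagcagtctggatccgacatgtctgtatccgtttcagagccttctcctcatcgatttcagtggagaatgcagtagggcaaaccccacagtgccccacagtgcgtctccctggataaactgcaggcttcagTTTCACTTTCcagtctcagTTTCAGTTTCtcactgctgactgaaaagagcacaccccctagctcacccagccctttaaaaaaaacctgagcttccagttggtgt
Gbp2: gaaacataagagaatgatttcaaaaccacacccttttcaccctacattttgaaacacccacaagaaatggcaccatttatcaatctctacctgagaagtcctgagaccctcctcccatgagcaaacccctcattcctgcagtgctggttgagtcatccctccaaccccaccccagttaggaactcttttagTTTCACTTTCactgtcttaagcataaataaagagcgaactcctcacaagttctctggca
In Isg15 3 matches overlap in a single run, and Ifit1 holds 2 separate matches. At least 1 promoter held the motif in 10 of 27 antiviral genes with a RefSeq entry (37.0%) and in 8 of 9 GTPase genes (88.9%). The share was 3.47% of the 8980 tested genes with an entry, 8.70% of those at least 2-fold higher, 3.92% of those at least 2-fold lower and 2.99% of those not called. Over all genes with a promoter, tested or not, the share was 3.46%, and 2.98% of their single promoters held the motif. An NF-kB pattern, on either strand GGG, 5 bases of any kind and CC, was in 65.0% of tested genes, in 67.5% of those at least 2-fold higher, in 63.5% of those at least 2-fold lower and in 52.9% of the cytokine genes. A match describes the letters of this window and not binding.

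Receptors and factors of cytokine signalling rose in the majority. Of 27 interferon regulatory factors, JAKs, STATs and their receptors, 18 rose (66.7%, against 18.0% of all genes), 2 fell and the median change was 0.76, and with slide as a block 12 rose and 2 fell. Irf8, needed for one lineage of conventional dendritic cells, went from 2.48, 2.12 and 2.57 to 3.62, 4.24 and 4.07, a change of 1.58 ± 0.22 (adjusted p = 0.000142). Irf4, needed for another, rose by 1.07 ± 0.11 (adjusted p = 1.71e-05), and Irf1 by 1.39. Stat3, Stat5a and Stat5b rose by 1.12, 1.15 and 1.21. Il4ra, a chain of the receptor for the IL-4 in the medium, rose by 1.5. The receptor chains for interferons moved apart: Ifnar2, of the type I receptor, rose by 1.68 ± 0.28 (adjusted p = 0.000459), while Ifngr1, the binding chain for interferon gamma, went from 1.30, 1.32 and 1.61 to -0.03, -0.04 and -0.31, a change of -1.53 ± 0.14 (adjusted p = 7.72e-06). Irf2, an opponent of Irf1, fell by 0.79. With local backgrounds as deposited Irf4 (adjusted p = 0.0609) and Irf2 (0.0789) were not called. Irf3 (0.07) and Irf5 (0.18) did not pass.

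Genes of dendritic cell maturation and migration rose as a majority. Of 31 tested, 19 rose (61.3%, against 18.0% of all genes) and 1 fell, with a median of 0.80, and with slide as a block 16 rose with a median of 1.06. Cd86, a costimulatory ligand of CD28, went from 2.36, 2.29 and 2.37 to 4.01, 4.50 and 4.36, a change of 1.95 ± 0.17 (adjusted p = 4.45e-06) or 3.87-fold. Another kept probe of Cd86, slightly dimmer, changed by 0.93. Cd80, the partner of Cd86, rose by 1.55 ± 0.18 (adjusted p = 3.66e-05). Cd83, a maturation marker, was called at 0.79, but not without unstimulated B or C or 24 h B (adjusted p = 0.0894 to 0.156), and its value was 0.00 with arrays scaled to each other. Inhibitory ligands rose beside them, Cd274 (PD-L1) by 1.16, Pdcd1lg2 (PD-L2) by 1.15 and Cd200 by 2.46 ± 0.27 (adjusted p = 3.01e-05). With local backgrounds as deposited Cd80 (1.54, adjusted p = 0.0646) and Pdcd1lg2 (1.11, 0.255) were not called. Fscn1, which bundles actin in dendrites, rose by 1.15, and Marcksl1 by 2.25. Zmynd15 had the largest change of the list, 2.79 ± 0.31 (adjusted p = 3.08e-05). Ido1 (-0.09) did not pass, and Cd40 is not analysed here. Icosl was the member that fell, with a change of -0.40 ± 0.14 (adjusted p = 0.0412), and that call was lost with the slide block (adjusted p = 0.521) and without unstimulated A, B or C or 24 h A or B (0.0524 to 0.178).

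Few transcripts of MHC class II presentation were called, while most of class I rose. The difference between the lists was not tested. Of 18 class II genes 2 rose and 1 fell (11.1% and 5.56%, against 18.0% and 21.4% of all genes), with a median change of 0.10. H2-Ab1, a class II chain, stood at 4.72, 4.31 and 4.55 without stimulation and at 4.52, 5.16 and 4.62 at 24 h, and Cd74, the invariant chain, at 4.07, 3.72 and 4.15 and 4.13, 3.98 and 4.17. In both genes the groups overlapped, and neither change was called (0.24 and 0.12). Ciita, the master activator of class II genes, changed by -0.32 ± 0.28 (adjusted p = 0.39), not called. H2-DMa, which loads peptide, was the member that fell, from 3.95, 3.65 and 4.01 to 2.83, 2.63 and 2.78, a change of -1.12 ± 0.15 (adjusted p = 0.000129). With local backgrounds as deposited it was not called (-1.13, adjusted p = 0.0748), nor was any other class II gene. The rises of H2-Oa (0.78) and Rfxank (0.50) were lost without unstimulated B (adjusted p = 0.0572 and 0.071) or 24 h B (0.0518 and 0.0582), and that of Rfxank without unstimulated A (0.0564) and with slide as a block (0.143). The median of the class II list was -0.11 with median centring of the arrays, so its sign depends on the scaling. With arrays scaled to each other 1 class II gene rose and 4 fell. The count of rises was 4 without unstimulated C, and 1 with slide as a block. Of 19 genes of class I and its peptide supply 14 rose (73.7%, against 18.0%), 2 fell and the median was 1.12, with 12 higher with slide as a block. H2-D1, a classical class I chain, went from 0.79, 0.04 and 0.91 to 2.45, 3.04 and 2.75, a change of 2.17 ± 0.24 (adjusted p = 2.78e-05). Tap1, a subunit of the peptide transporter, rose by 1.67 ± 0.25 (adjusted p = 0.000237), Tapbp (tapasin) by 1.66 and B2m by 1.63. Class I genes are near-identical to each other, and their probes may share signal. The chaperones Calr (-0.45) and Canx (-0.33) fell, and each of these calls was lost when 1 array was left out, Calr without unstimulated A or B or 24 h A or C (adjusted p = 0.0823 to 0.105) and Canx without unstimulated A or C or 24 h B or C (0.0515 to 0.106). Neither was called with median centring or with local backgrounds as deposited (0.0599 to 0.0974).

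Receptors for uptake moved in both directions. Of 26 tested, 9 rose and 9 fell (34.6% each, against 18.0% and 21.4% of all genes), and with slide as a block 6 rose and 4 fell. Marco, a scavenger receptor for bacteria and particles, went from 2.31, 2.06 and 1.56 to 7.06, 7.08 and 7.57, a change of 5.26 ± 0.21 (adjusted p = 1.33e-08) or 38.2-fold. Clec4e (Mincle), a lectin that binds mycobacterial cord factor, rose by 4.91 ± 0.26 (adjusted p = 9.41e-08). Ly75 (DEC-205) rose by 2.07 ± 0.14 (adjusted p = 8.21e-07), and Olr1, a receptor for oxidised LDL, by 2.87. Mrc1, the mannose receptor, fell from 3.02, 3.67 and 3.73 to 0.96, 0.61 and 0.10, a change of -2.92 ± 0.34 (adjusted p = 4.11e-05), and was above background on 2 of the 3 arrays at 24 h. Clec10a and Mgl2, lectins for galactose residues that IL-4 induces, had changes of -2.64 and -1.53, Clec10a at -0.81 (adjusted p = 0.0703) from the scanner's processed signals. Clec5a fell by 2.06, and Trem2, a lipid receptor, by 1.11 (adjusted p = 0.144 with slide as a block). In Marco, Clec4e, Ly75, Mrc1, Clec10a and Mgl2 the groups did not overlap, as in 18 of the 26 and in 52.2% of all genes tested. Weaker rises of Fcgr3 (0.33) and Fcgr4 (0.69) were lost in the slide block fit (adjusted p = 0.319 and 0.81) and without unstimulated B (0.112 and 0.056), 24 h B (0.134 and 0.0718) or 24 h C (0.0588 and 0.0534), and that of Fcgr3 also without unstimulated C (0.075).

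Of 38 lysosomal genes 12 were higher and 9 lower (31.6% and 23.7%, against 18.0% and 21.4% of all genes), so that the share of falls was near that of all genes. The median was 0.23. With slide as a block 6 were higher and 5 lower, and with median centring 7 were higher. Npc2, which carries cholesterol out of the lysosome, rose by 1.83 ± 0.21 (adjusted p = 3.9e-05), Ctsz (cathepsin Z) by 1.48 and Gpnmb by 1.55. The glycan hydrolases Gusb and Man2b1 changed by -1.27 ± 0.21 (adjusted p = 0.000413) and -1.06, and Ctsc, which activates granule proteases, changed by -1.20. Ctsb (cathepsin B) is uncertain, since 1 of its probes was called higher (0.67) and another lower (-0.36).

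**Figure D4:**
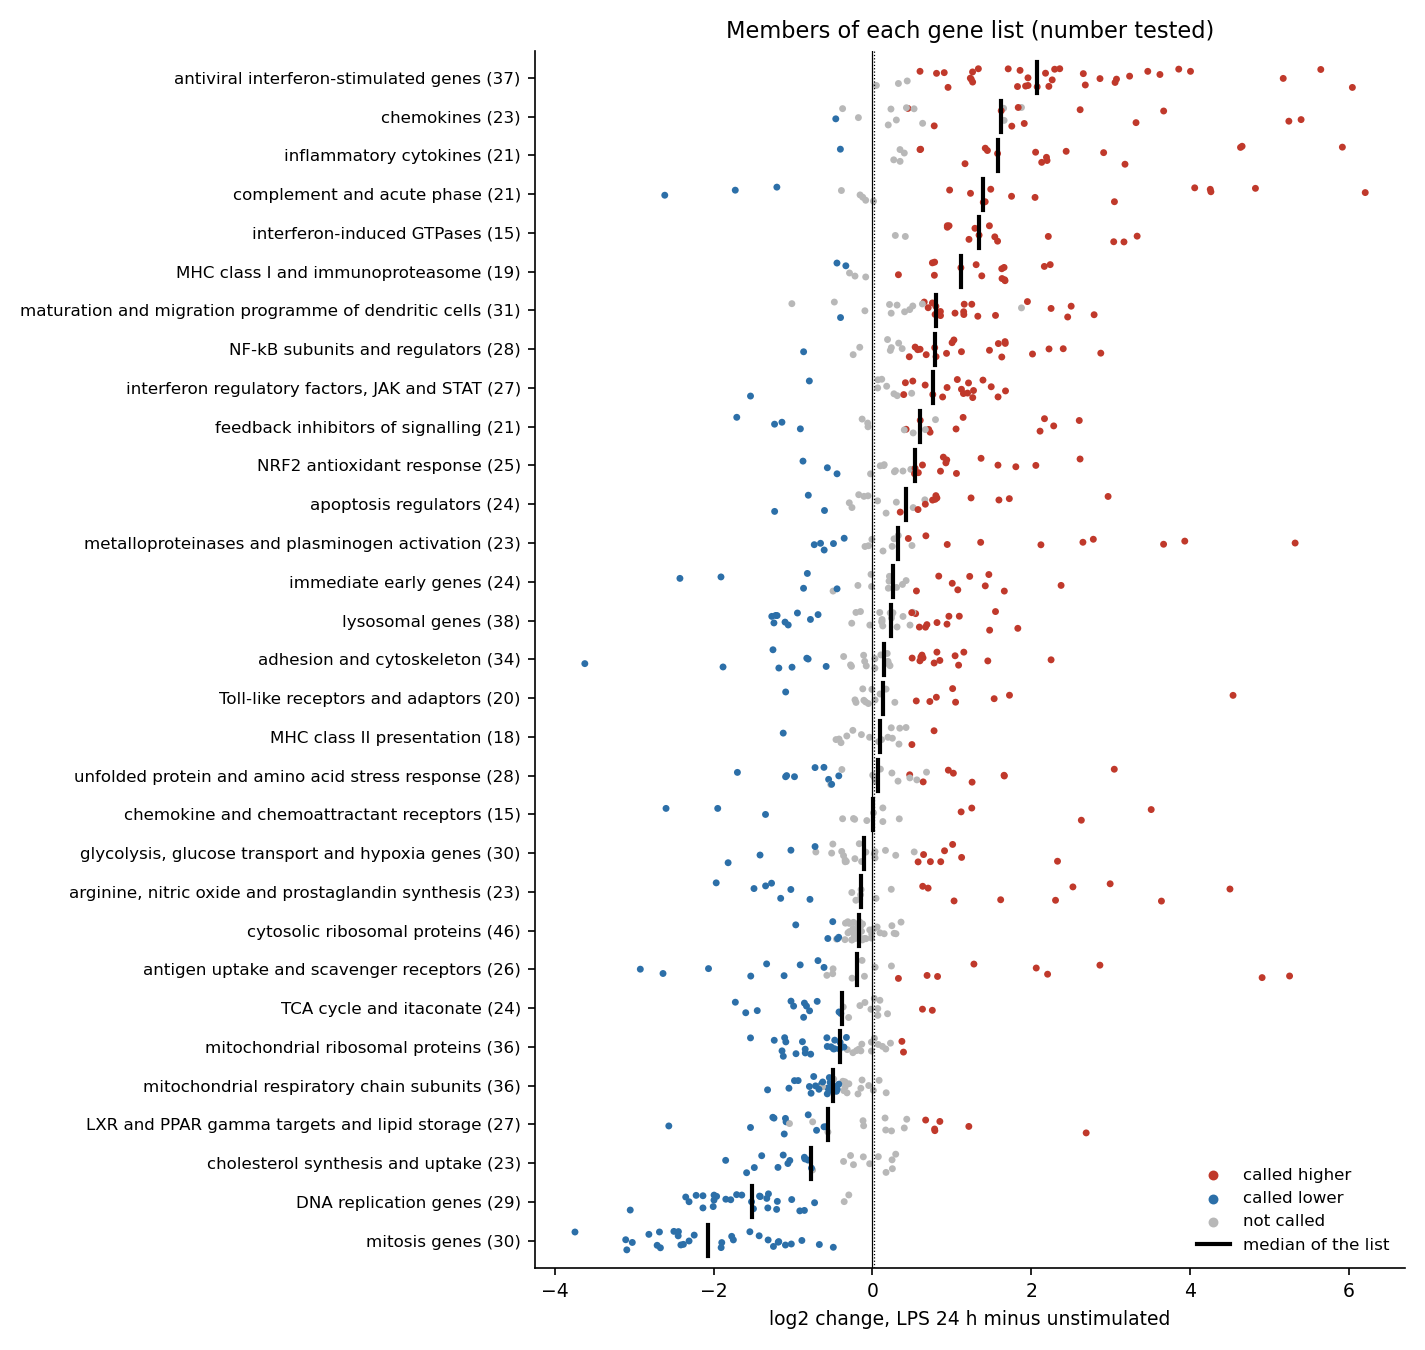
Log2 change (LPS 24 h minus unstimulated, x axis) of every tested member of 31 gene lists (y axis, with the number tested), 1 point per gene, coloured red where called higher, blue where called lower and grey where not called, with a bar at the median of each list and a dotted line at the median of all genes, 0.02. All 30 mitosis genes lie below 0, and the antiviral interferon-stimulated genes have the highest median, 2.08.

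The machinery of cell division fell in every tested member of the mitosis list. All 30 mitosis genes tested were called lower (against 21.4% of all genes), with a median change of -2.07, and 27 of 29 DNA replication genes were, with a median of -1.52. Birc5 (survivin), of the chromosomal passenger complex, went from 0.30, 0.39 and 0.03 to -2.92, -3.86 and -3.73, a change of -3.75 ± 0.61 (adjusted p = 0.000447) or 13.4-fold. Ccnb1, the cyclin of mitotic entry, went from -0.19, -0.10 and -0.43 to -2.65, -3.69 and -3.44, a change of -3.02 ± 0.57 (adjusted p = 0.00112), and was above background on 2 of 3 arrays at 24 h. Ccnb2 changed by -3.11. Cdc20, the activator of the anaphase-promoting complex, changed by -3.09, and Top2a, a topoisomerase of chromosome condensation, by -1.75. Array A had the smallest fall of Birc5 and Ccnb1. Among replication genes Rrm2, a subunit of ribonucleotide reductase, went from -0.64, -0.42 and -0.94 to -3.35, -3.84 and -3.96, a change of -3.05 ± 0.28 (adjusted p = 7.02e-06). The helicase subunits Mcm2 to Mcm7 all fell, with Mcm7 at -2.35 and Mcm5 at -1.52. Ccne1 (-0.35) and Tyms (-0.30) did not pass, though Ccne1 was called without the 24 h array B (-0.57, adjusted p = 0.03). With slide as a block 21 mitosis genes and 22 replication genes were called, all lower, with medians of -2.14 and -1.53. Among the genes not called with the block were Cdk1 (-1.55, adjusted p = 0.09) and Tk1 (-1.53, 0.0687). The fall stood beside that of the neutrophil markers, whose summed signal is given above, while of 4 progenitor markers 1 rose (Gfi1, 0.72, adjusted p = 0.136 with median centring) and 1 fell (Kit, -0.42, not called with slide as a block, adjusted p = 0.637, nor without unstimulated A or B or 24 h B or C, 0.0645 to 0.1). The part of these markers in the fall was not tested.

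Promoters of Ccnb1 and Ccnb2 are shown in the same way, with capitals at CCAAT on either strand, the box bound by NF-Y. The window of Ccnb1 is chr13:100786487-100786736, minus strand and that of Ccnb2 is chr9:70421555-70421804, minus strand.
Ccnb1: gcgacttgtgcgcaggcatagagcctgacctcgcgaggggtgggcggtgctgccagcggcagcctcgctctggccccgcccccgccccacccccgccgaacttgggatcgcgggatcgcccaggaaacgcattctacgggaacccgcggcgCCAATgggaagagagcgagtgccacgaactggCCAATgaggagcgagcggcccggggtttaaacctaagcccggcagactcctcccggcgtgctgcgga
Ccnb2: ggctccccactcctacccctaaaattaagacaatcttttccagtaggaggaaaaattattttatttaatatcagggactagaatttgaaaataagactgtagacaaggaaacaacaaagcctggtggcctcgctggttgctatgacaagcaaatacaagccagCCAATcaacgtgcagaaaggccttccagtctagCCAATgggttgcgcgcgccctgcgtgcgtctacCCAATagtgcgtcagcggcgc
Of 25 mitosis genes with a RefSeq promoter, 20 held CCAAT (80%). The share was 40.8% of tested genes, 48.5% of those at least 2-fold lower and 37.5% of all genes with a promoter. The cell cycle homology region, TTTGAA on either strand, was in 8 of the 25 (32.0%), against 13.4% of tested genes and 18.3% of all genes. Neither share was particular to this list. Over the gene lists the share of CCAAT ran from 13.3% (complement and acute phase) to 87.5% (cholesterol synthesis), with 78.6% for class II genes. That of TTTGAA ran from 0% (unfolded protein response) to 55.6% (interferon-induced GTPases). Both motifs were chosen after the values had been seen.

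Genes of cholesterol synthesis were called lower or not at all. Of 23 tested, 12 fell (52.2%, against 21.4% of all genes) and none rose, with a median of -0.77. The falls were 7 in the slide block fit and 5 with median centring. Dhcr7, which catalyses a last step to cholesterol, went from 0.89, 1.11 and 1.02 to -0.26, -1.48 and -0.78, a change of -1.85 ± 0.26 (adjusted p = 0.000141). Cyp51 changed by -1.49 and Sqle, an early enzyme of the sterol branch, by -1.39. For LXR and PPAR gamma, their targets and lipid storage 27 genes were tested. Of these 6 were higher and 11 lower (22.2% and 40.7%, against 18.0% and 21.4% of all genes). These counts were 3 and 5 with slide as a block, 3 and 7 with median centring and 4 and 6 with local backgrounds as deposited. Fasn, fatty acid synthase, went from -0.32, -0.49 and -0.59 to -2.60, -3.29 and -3.19, a change of -2.56 ± 0.38 (adjusted p = 0.000227). Acsl1, which activates fatty acids, went from 0.27, 0.52 and 0.13 to 3.07, 3.00 and 2.93, a change of 2.69 ± 0.15 (adjusted p = 2.06e-07). The groups did not overlap in either gene, as in 52.2% of all genes tested. Pparg, a nuclear receptor for lipids, fell by 1.09, while Abca1, which exports cholesterol, had a value of 0.43 that did not pass. Rxra is uncertain, with probes called in opposite directions (0.56 and -1.09).

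Many mitochondrial genes fell, while counts for glycolytic genes lay near those of all genes. Of 36 subunits of the respiratory chain and ATP synthase, 20 fell (55.6%, against 21.4%) and none rose, with a median of -0.49, and 7 fell with slide as a block, 12 with median centring and 13 with local backgrounds as deposited. Ndufb5, of complex I, changed by -1.32 ± 0.15 (adjusted p = 3.9e-05). Of 24 genes of the tricarboxylic acid cycle 12 fell (50%) and 2 rose, with a median of -0.38. With the block 5 fell and with median centring 6, and none rose in either. Idh3a, a subunit of isocitrate dehydrogenase, went from -0.11, 0.35 and 0.05 to -1.15, -1.88 and -1.85, a change of -1.73 ± 0.28 (adjusted p = 0.000364), and Fh1, fumarase, changed by -1.59 ± 0.24 (adjusted p = 0.00026). Acod1 is not analysed here. Of 36 mitochondrial ribosomal proteins 21 fell (58.3%) and 2 rose, with a median of -0.41, against 5 lower and none higher of 46 cytosolic ribosomal proteins, with a median of -0.17. Rpl14, Rps19 and Rpl8 were among the 5, and with slide as a block 0 cytosolic and 8 mitochondrial ribosomal genes were lower. With median centring 14 cytosolic and 12 mitochondrial ones were lower, so that the contrast between these lists depends on the scaling. The cytosolic count rested on single arrays, and ran from 1 (without unstimulated C or 24 h C) to 10 (without 24 h B), with 3 higher and a median of 0.06 without 24 h C. Of 30 genes of glycolysis, glucose transport and hypoxia, 8 rose and 4 fell (26.7% and 13.3%, against 18.0% and 21.4% of all genes), with a median of -0.11. The count of rises was 4 without unstimulated B, 5 without unstimulated A, 24 h B or 24 h C, 2 with slide as a block, and 3 with median centring or with local backgrounds as deposited, and 8 genes fell without 24 h C. The median was 0.03 without unstimulated C. Vegfa, the angiogenic factor, rose by 2.33 ± 0.34 (adjusted p = 0.000187), and Slc16a1, a lactate carrier, fell by 1.82. Ldha (0.04) and Pkm (-0.16), of the last steps of glycolysis, did not pass.

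Enzymes of nitric oxide and prostaglandins were rearranged. Of 23 tested, 9 rose and 7 fell (39.1% and 30.4%, against 18.0% and 21.4% of all genes), and 7 rose and 4 fell with slide as a block. Nos2, the inducible nitric oxide synthase, went from 0.23, 0.34 and 0.65 to 3.04, 3.83 and 3.34, a change of 3.00 ± 0.27 (adjusted p = 7.13e-06) or 7.98-fold. Slc7a2, which imports its substrate arginine, rose by 2.53. Arg2 was above background on no unstimulated array and at least 2.89-fold higher at 24 h. Arg1, which competes for arginine and is induced by IL-4, stood at 6.72, 6.49 and 6.78 and then at 6.35, 6.58 and 6.28, with overlapping groups and a value of -0.26 ± 0.18 (adjusted p = 0.287) that did not pass. It was called lower with median centring (-0.64, adjusted p = 0.0171) and with arrays scaled to each other (-0.96, 0.016). Ptgs2 (COX-2) was above background on no unstimulated array and was at least 21.2-fold higher at 24 h (adjusted p = 7.6e-05). Ptges, which makes prostaglandin E, rose by 3.64 ± 0.38 (adjusted p = 1.75e-05). Ptgs1 (COX-1) fell, from 1.11, 1.21 and 1.31 to -0.16, -1.48 and -0.64, a change of -1.97 ± 0.31 (adjusted p = 0.000356), and Tbxas1, thromboxane synthase, and Lta4h, of leukotriene synthesis, changed by -1.15 and -1.34. Tbxas1 was not called with local backgrounds as deposited (adjusted p = 0.174).

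Most acute phase, complement and iron genes rose. Of 21 tested, 13 rose (61.9%, against 18.0% of all genes) and 3 fell, with a median of 1.40, and 11 rose with slide as a block. Saa1 changed by 4.26 ± 0.36 (adjusted p = 4.45e-06), and its probe may share signal with other serum amyloid genes. Cfb, complement factor B, went from 1.64, 1.11 and 1.14 to 5.34, 6.00 and 5.32, a change of 4.26 ± 0.21 (adjusted p = 5.01e-08), and C3, the central component, rose by 1.40 but was not called with the block (adjusted p = 0.247). Fth1, the ferritin heavy chain that stores iron, went from -1.26, -1.09 and -1.17 to 2.40, 3.24 and 3.03, a change of 4.06 ± 0.21 (adjusted p = 7.43e-08). Lcn2, which withholds iron from bacteria, rose by 3.05 ± 0.30 (adjusted p = 1.32e-05), whereas Ltf, another iron-binding protein and a neutrophil granule marker, fell by 2.61. C1qc changed by -1.20 and was not called with the block (adjusted p = 0.166).

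Genes of metalloproteinases and plasminogen activation included some of the largest rises. Timp1, an inhibitor of metalloproteinases, went from -2.40, -2.17 and -2.38 to 2.50, 3.81 and 2.72, a change of 5.33 ± 0.39 (adjusted p = 1.37e-06). Thbs1 (thrombospondin 1) rose by 3.94 ± 0.47 (adjusted p = 4.49e-05), and Mmp14 and Mmp13 by 2.65 and 2.78. In all, 10 of 23 genes of this list rose and 5 fell (43.5% and 21.7%, against 18.0% and 21.4% of all genes). With local backgrounds as deposited 1 of the falls was called, with median centring 2, and with any 1 of the 6 arrays left out 1 to 3 of the falls were called. Of 34 adhesion and cytoskeleton genes 13 rose and 8 fell (38.2% and 23.5%), and 8 rose and 2 fell with slide as a block. With median centring 7 rose, and with local backgrounds as deposited 5 fell. Itga5, a fibronectin receptor chain, rose by 1.46.

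Stress and survival genes rose in part. Of 25 genes of the Nrf2 antioxidant response, 14 rose (56%, against 18.0% of all genes) and 3 fell. The median of the list was 0.54. The rises were 5 in the slide block fit, 3 with median centring and 9 with local backgrounds as deposited. Gstm1, a glutathione transferase, went from -1.43, -1.53 and -1.53 to 1.11, 0.63 and 1.63, a change of 2.62 ± 0.20 (adjusted p = 2.05e-06), and Sqstm1 (p62) rose by 2.06. Hmox1, which degrades haem, rose by 1.58 ± 0.22 (adjusted p = 0.000148) and had an adjusted p of 0.0588 with the block. In the unfolded protein and amino acid stress response 8 of 28 rose and 9 fell (28.6% and 32.1%, against 18.0% and 21.4% of all genes). With the block 6 rose and 1 fell. With median centring 5 rose and 4 fell, and with local backgrounds as deposited 5 fell. Nupr1 (3.05), Ddit3 (CHOP, 1.66) and Ppp1r15a (1.26) were among those that rose. Chaperones and folding helpers were among those that fell, such as Sdf2l1 (-1.09, adjusted p = 0.0908 with the block) and Pdia6 (-0.61, 0.0836 with the block and also lost with median centring and with local backgrounds as deposited), with Phgdh, of serine synthesis, at -1.70 (0.0933 with the block). Of 24 apoptosis regulators 11 rose and 3 fell (45.8% and 12.5%, against 18.0% and 21.4% of all genes). With the block 5 rose and none fell. The rises were 6 with median centring and 7 with local backgrounds as deposited. Casp4 (caspase-11), which binds intracellular LPS, went from -1.07, -0.90 and -1.17 to 1.48, 2.32 and 1.98, a change of 2.97 ± 0.22 (adjusted p = 1.6e-06). Fas rose by 1.73 and Cflar (c-FLIP), which blocks its signal, by 1.59, and Bcl2 fell by 1.23 (adjusted p = 0.0522 with the block).

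Immediate early genes, which respond within an hour of stimulation, were called in both directions at 24 h, with a share of falls near that of all genes. Of 24 tested, 9 rose and 5 fell (37.5% and 20.8%, against 18.0% and 21.4% of all genes). The falls were 3 without unstimulated C or 24 h C, with median centring or with local backgrounds as deposited, and slide as a block left 5 rises and 1 fall. Nr4a2, an orphan nuclear receptor, went from -0.81, -0.93 and -0.86 to 0.64, 2.30 and 1.59, a change of 2.38 ± 0.34 (adjusted p = 0.000178). Atf3, which restrains cytokine genes, rose by 1.66. Fos (-0.18) and Egr1 (-0.49) did not pass. Myc, which drives growth, went from -0.98, -0.95 and -1.12 to -2.72, -2.47 and -3.58, a change of -1.91 ± 0.24 (adjusted p = 6.78e-05), and Klf4 changed by -2.42 (adjusted p = 0.0642 with slide as a block). Klf2 is uncertain, with probes called in opposite directions (0.84 and -1.76).

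The levels at 1 h and 6 h place these values in the time course. All changes share the unstimulated arrays, so the means are given side by side without a test. Of the 605 genes at least 2-fold higher at 24 h, the highest group mean was at 24 h for 349 (57.7%), at 6 h for 218 (36.0%) and at 1 h for 38 (6.28%). Of the 727 genes at least 2-fold lower, the lowest mean was at 24 h for 567 (78.0%), at 6 h for 158 (21.7%) and at 1 h for 2. Tnf had means of 0.64, 5.81, 5.08 and 3.55 at 0, 1, 6 and 24 h, highest at 1 h. Ifnb1 was likewise highest at 1 h (0.06, 6.04, 3.69 and 1.93). Nfkbiz had means of -2.48, 4.10, 1.64 and 0.40. Isg15 (-1.96, 1.90, 4.31 and 3.21) and Rsad2 (-1.26, 1.42, 7.09 and 4.78) were highest at 6 h. Il1b stood near the same level at every time after LPS (3.40, 7.96, 7.90 and 8.05). Saa3 (-3.33, -2.14, 0.09 and 2.88) and Fth1 (-1.17, -0.48, 1.13 and 2.89) were highest at 24 h. Birc5 (0.24, -1.38, -2.52 and -3.50) and Ccnb1 (-0.24, -1.39, -2.48 and -3.26) were lower at each later time, and S100a8 (4.59, 2.08, 1.07 and 1.21) was lowest at 6 h.

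A smaller set of genes had not moved far in their final direction at 6 h, though some had moved the other way or at 1 h. Of the 605 higher genes 63 had risen by less than 0.5 at 6 h, and 14 of those were below the unstimulated mean there. Of the 727 lower genes 73 had fallen by less than 0.5 at 6 h, and 25 of those were above it. Enpp2 (autotaxin), which makes lysophosphatidic acid, changed by -0.11 at 1 h, by -0.09 at 6 h and by 2.59 ± 0.20 (adjusted p = 2.06e-06) at 24 h, with levels of -0.80, 0.07 and -0.36. Plac8 changed by -1.53 at 1 h, 0.27 at 6 h and 2.73 ± 0.29 (adjusted p = 2.26e-05) at 24 h. At 1, 6 and 24 h Il4ra changed by 0.55, 0.45 and 1.5, Stat4 by -0.09, -0.01 and 1.26, and Hmox1 by 0.39, -0.14 and 1.58. Among the falls Mrc1 changed by 1.22 at 1 h, 0.06 at 6 h and -2.92 at 24 h. Fcrls changed by 0.28, -0.44 and then -3.75. Pros1 (protein S) changed by 0.12, 0.79 and -1.42 (adjusted p = 0.0679 with slide as a block), and Mgl2 by 0.15, -0.34 and -1.53. These genes were picked as examples after their values were seen. For them too the time in culture is part of the contrast.

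Some values carry limits of the probes. For 149 called genes the probe was not well above background in 1 of the 2 groups, so that a fold is only a bound. For 23 genes different probes were called in opposite directions, Ctsb, Rxra and Klf2 among them. Probes of a gene also differed in the size of the change. They gave 2.62 and 3.26 for Cxcl16 and -3.02, -2.22 and -2.04 for Ccnb1, the brightest probe first.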

How the data were processed

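The samples were measured on Agilent 2-colour arrays with 45018 spots. Per the file headers, the authors deposited scanner output of Feature Extraction 10.7.3.1 (protocol GE2_107_Sep09), in which spot and background values are median pixel intensity on a linear scale. The deposited log10 ratio of Cy5 over Cy3 was used to check direction. Per the submitters' processing notes limma was used, with no version given. The authors' deposited table of log2 ratios matched the values used here on every array (r = 0.999, same direction and scale, column medians of 0.0051 to 0.0098), with the authors' centring not given in the sources used here.

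Mean intensities, which had been planned, are not in the files used here, so medians were used. Local backgrounds flagged as outliers were replaced by the array median, background was corrected with normexp (offset 50), and loess (span 0.3) was run on each array with the 1639 control spots at weight 0. The replacement of backgrounds was chosen after the files had been seen. Flagged spots were left out, so 14 genes had a missing value and were fitted without it. Spots of a probe were averaged. A probe was kept if it was well above background in Cy5 on every array of any group, and 21766 of 41174 probes were. Of all probes 22951 received a symbol through the RefSeq table (GRCm38.p6) and 18223 did not. The brightest kept probe stood for each of 11108 genes, 3300 of which had more than 1. The model was limma 3.58.1 in R 4.3.3, with 1 mean per group over 12 arrays and 8 residual degrees of freedom. The bound on a fold is the bright group's mean in Cy5 against, per array, the higher of the dimmest Cy5 signal well above background and the probe's own.

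Genes were named as the 20 steepest rises and the 20 steepest falls with groups that did not overlap, the 6 most changed members of each list, members called against their list, a set of hallmark genes, and list members whose role is given. Some genes of the lists count in these totals but are not reported here by name. The comparison, members and lists were chosen with earlier results of these data known. On simulated data for this comparison with 11108 genes the fit recovered 24% of 50 genes changed by 0.5 (log2), 92% at 1 and 100% at 2 and at 4, with 9 false calls. The simulated noise was independent between arrays and held no slide effect. The recovery and false calls therefore do not cover the split of the groups between slides. Replicate letters come from the labels, and whether 1 letter stands for 1 animal across groups is not said there. Deviations from the group means correlated at r = -0.14, -0.13 and 0.03 for arrays of the same letter at 24 h and unstimulated. The labels call the samples biological replicates.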

Additional observations from a re-analysis of the deposited data

Results flagged for a closer look

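Of the 6646 kept probes that received no gene symbol, and that are in no comparison above, 1852 were called between LPS 24 h and unstimulated cells. Of these 794 were higher and 1058 lower.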

How the results depend on the processing

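The number of genes called (4374) moved with the treatment of slides and background. With slide as a fixed block it was 1759 (848 higher, 911 lower), and with slide as a random block 3753 (correlation 0.221). With median centring in place of loess 2333 genes were called, 834 higher and 1499 lower, so that 35.7% of calls were higher against 45.6%, and 32.2% against 45.4% at 2-fold or more. The median change was then -0.11 against 0.02. The scanner's processed signals gave 2045 genes at 2-fold or more, 1164 of them lower, against 1332 and 727. With all local backgrounds as deposited 3028 were called. Leaving out 1 array of the comparison gave 3474 to 4229 genes, and leaving out the 6 h array B gave 4304, an alternative added after the data had been seen. Leaving out 1 array gave 1510 to 1857 genes higher and 1964 to 2372 lower, and at 2-fold or more 1229 to 1523 genes, 560 to 670 higher and 655 to 853 lower. With the replicate letter as a block 4745 genes were called, 4324 of the 4374 among them, and 1343 at 2-fold or more. That block ended no call of a gene named above except as stated there. Reversed values were -0.029 for Batf3 and -0.17 for Fcgr3 (arrays scaled to each other), -0.26 for Ifnb1 (within slides, through slides 1 and 2), and -0.11 for Fcgr4, 0.21 for Icosl and 0.02 for Timp2 (within slides, through slides 1, 3 and 4). The cause was not tested. Of 317 called genes examined singly, 193 kept call and sign in every fit. Calls of these single genes were lost for 94 with slide as a fixed block, 59 with all local backgrounds as deposited and 44 with median centring. They were lost for 16 from the scanner's processed signals. With arrays scaled to each other 14 were lost with the sign kept and 2 more, Batf3 and Fcgr3, with the sign reversed. Within slides, where no test was made, the value moved by more than the spread between replicates for 151 of 345 genes (through slides 1 and 2) and 195 of 344 (through slides 1, 3 and 4). Signal over background limits the 149 genes given as bounds.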
